A study of Mus musculus with 49 samples.

Results

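Glycolysis and hypoxia genes were followed in mouse liver from 1 h to 16 d after a toxic dose of acetaminophen. The 10 genes were Hif1a, Vegfa, Slc2a1, Hk2, Pfkfb3, Aldoa, Pgk1, Eno1, Pkm and Ldha, and their probe sets were taken by gene symbol from the platform annotation where a probe set carried a single symbol. Such a probe set was listed for 9 of the 10 genes, with 22 probe sets in all among 45101 on the array, and Eno1 was not analysed here. For 8 of the 9 genes (all but Slc2a1) 1 probe set had a value on every array, among 5976 genes of the series with such a value and 18194 with any single-symbol probe set.

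The study profiled livers of male C57BL6/N mice on Affymetrix mouse arrays, on which each gene is read by 1 or more probe sets. Treated mice received 300 mg/kg acetaminophen (APAP) by intraperitoneal injection after a night without food and were then fed freely, and livers were taken after 1, 6 or 12 h or after 1, 2, 4, 6, 8 or 16 d. The reference was a control group whose fasting state and vehicle are not described in the sources used here. The design text ends at 8 d, and only the sample labels name 16 d. Every group had 5 arrays except 6 h, which had 4. The labels do not say that the arrays of a group came from separate mice, so the p-values reflect array-to-array spread, part or all of which may be technical.

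Glycolysis splits glucose into pyruvate, and its genes are switched on together by HIF-1, a transcription factor whose alpha subunit (encoded by Hif1a) is degraded while oxygen is plentiful. Hepatocytes mostly use liver forms of the pathway's enzymes and make glucose as well as burn it, whereas leukocytes, endothelial cells, activated stellate cells and dividing cells rely on forms such as Hk2 and Pkm. Acetaminophen overdose kills the hepatocytes around the central vein, the zone with the least oxygen, after which leukocytes enter and the tissue regrows.

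HIF-1 binds DNA at a short core, ACGTG, usually called the hypoxia response element, and RefSeq promoter windows of the genes were searched for it on both strands. Each window spans 250 bases before to 50 bases after an annotated start (GRCm38.p6). All 10 genes matched, with 18 windows, some of which overlap. The core occurred in 11 of the 18 windows (61.1%) and in 9 of the 10 genes, against 19.6% of all 32851 windows. The related letters GCGTG occurred in 8 of the 18 windows, against 32.4% of all windows. The palindrome CACGTG, which holds ACGTG on both strands, occurred in 7.15% of all windows. Most of these genes are known HIF-1 targets, and a match describes the letters without showing a bound site. Windows of 6 genes are printed here to set windows with several matches beside windows with 1 or none, and capitals mark ACGTG or its reverse complement CACGT.
Slc2a1, chr4:119108495-119108794 (plus strand): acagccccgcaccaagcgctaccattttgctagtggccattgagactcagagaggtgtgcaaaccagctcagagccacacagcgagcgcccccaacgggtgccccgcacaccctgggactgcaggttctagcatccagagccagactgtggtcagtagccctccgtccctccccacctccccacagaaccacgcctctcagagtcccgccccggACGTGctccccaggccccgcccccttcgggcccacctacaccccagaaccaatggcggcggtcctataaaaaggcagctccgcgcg
Hk2, chr6:82774405-82774704 (minus strand): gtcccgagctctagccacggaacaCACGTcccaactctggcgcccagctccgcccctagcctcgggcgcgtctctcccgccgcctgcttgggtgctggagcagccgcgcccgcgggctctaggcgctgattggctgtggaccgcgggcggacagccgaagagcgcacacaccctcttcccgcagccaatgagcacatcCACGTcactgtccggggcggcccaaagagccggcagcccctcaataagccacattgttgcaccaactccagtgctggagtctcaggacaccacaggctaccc
Pgk1, chrX:106186850-106187149 (plus strand): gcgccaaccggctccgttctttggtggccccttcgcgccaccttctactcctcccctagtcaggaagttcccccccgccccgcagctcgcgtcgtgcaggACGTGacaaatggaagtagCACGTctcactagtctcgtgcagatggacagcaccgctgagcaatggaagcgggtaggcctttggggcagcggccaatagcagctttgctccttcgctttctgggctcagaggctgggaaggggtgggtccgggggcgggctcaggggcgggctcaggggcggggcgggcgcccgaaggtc
Pkm, chr9:59656977-59657276 (plus strand): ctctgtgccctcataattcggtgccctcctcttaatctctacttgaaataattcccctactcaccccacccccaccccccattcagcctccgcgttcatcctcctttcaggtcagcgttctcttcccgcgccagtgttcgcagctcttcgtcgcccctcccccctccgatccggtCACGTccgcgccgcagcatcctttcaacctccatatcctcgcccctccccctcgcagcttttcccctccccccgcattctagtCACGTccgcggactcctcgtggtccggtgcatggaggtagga
Ldha, chr7:46845554-46845853 (plus strand): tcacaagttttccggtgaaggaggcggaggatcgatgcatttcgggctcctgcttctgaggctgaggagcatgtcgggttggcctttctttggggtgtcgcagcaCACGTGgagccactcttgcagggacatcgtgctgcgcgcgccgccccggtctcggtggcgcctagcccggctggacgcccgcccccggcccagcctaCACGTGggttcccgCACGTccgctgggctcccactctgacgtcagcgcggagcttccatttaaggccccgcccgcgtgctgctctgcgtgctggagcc
Vegfa, chr17:46032328-46032627 (minus strand): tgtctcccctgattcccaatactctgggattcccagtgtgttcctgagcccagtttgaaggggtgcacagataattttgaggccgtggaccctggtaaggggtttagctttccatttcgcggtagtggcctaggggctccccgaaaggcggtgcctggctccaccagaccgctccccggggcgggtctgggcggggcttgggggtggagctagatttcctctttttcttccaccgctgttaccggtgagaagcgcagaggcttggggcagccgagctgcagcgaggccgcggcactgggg
The Ldha window held 5 matches counted over both strands, and those of Hk2, Pgk1 and Pkm held 2 each. The Slc2a1 window held 1, and the printed Vegfa window held none, while the other Vegfa window held 1.

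Values are log2 expression per probe set, as deposited. All probe sets had values on the 25 arrays taken at 1 h or 12 h or at 1 d, 2 d or 16 d, and the other 24 arrays held about the first 8137, so that comparisons with control cover 8137 probe sets and comparisons with 1 h cover 45037. Of 10 hepatocyte markers 9 were measured, and their means lay at or above percentile 98.7 of all probe sets. On 3 arrays (1 h replicate 3, 16 d replicate 4 and control replicate 3) the SD of values within the array was 2.25 to 2.26, against 2.40 to 2.48 on the others, and results that turned on these arrays are given with and without them. Differences are log2 group means, time minus reference, ± the standard error (SE) of the limma fit. A probe set was called higher or lower where limma's p, adjusted by Benjamini-Hochberg over all probe sets of the comparison, was under 0.05. The probe set with the highest mean stood for its gene.

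Of the 8 genes with control values, 4 were higher than control at 12 h, 6 at 1 d and 4 at 2 d, and 2, Aldoa and Ldha, were lower from 6 d to 16 d. The RNA came from whole liver, so fewer cells of a type and less RNA per cell cannot be told apart. At 1 h limma called none of the 8 genes, and 0 had an unadjusted p under 0.05, where 0.578% of all probe sets were called in either direction. At 6 h 1 gene was higher (Vegfa), against 3.61% of all probe sets. At 12 h 4 of 8 were higher (Vegfa, Pkm, Aldoa and Hk2), against 11.5% of all. At 1 d 6 of 8 were higher, against 16.0% of all, and the exceptions were Hif1a and Pfkfb3. At 2 d 4 were higher, against 19.5% of all, and 1 (Vegfa) was lower, against 12.3%. At 4 d Pkm and Pgk1 were higher, against 9.07% of all, and Ldha was lower, against 6.16%. From 6 d on Aldoa and Ldha were lower and no gene was higher. All probe sets called lower amounted to 2.41% at 6 d, 2.69% at 8 d and 3.0% at 16 d.

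The median difference from control of the 8 genes was 0.68 at 12 h, 0.59 at 1 d and 0.41 at 2 d, where the median of all probe sets was -0.04, -0.02 and -0.03. A moderated F test over all times called 6 of the 8, against 52.8% of all probe sets, with adjusted p of 0.0604 for Hif1a and 0.0807 for Pfkfb3 (limma). The split of all calls moved with the scale. At 1 d 1300 probe sets were higher and 1045 lower as deposited, 1072 and 1633 after centring each array on its median, and 687 and 4031 after centring on ribosomal protein genes. At 2 d these counts were 1586 and 1004, then 1072 and 3296, then 1008 and 3611. The calls of Pkm, Aldoa, Hk2 and Pgk1 at 1 d held under both centrings.

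**Figure D1:**
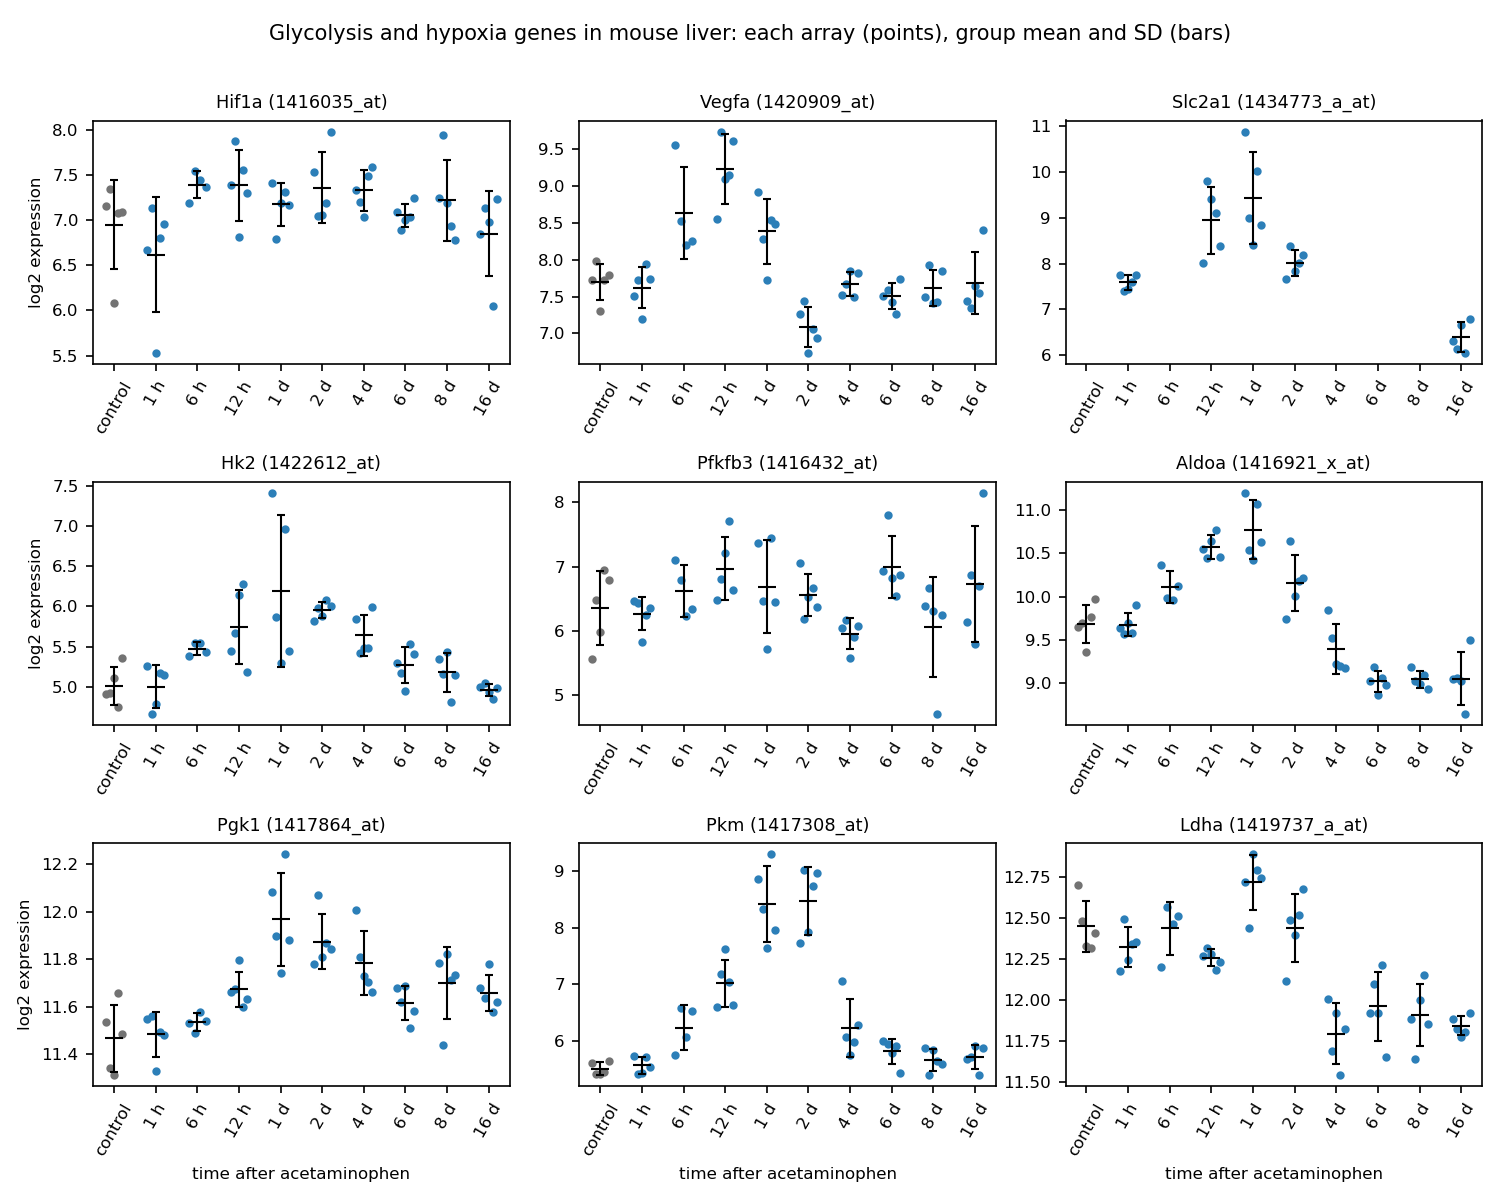
Log2 expression of 9 genes by group, with control at the left of each panel and the times after acetaminophen to its right. Points are arrays, and bars give the group mean and SD. Pkm stood above control at 1 d and 2 d on every array, Vegfa peaked at 12 h, and Aldoa and Ldha fell under control at the late times. Slc2a1 is drawn for the 5 groups in which it had values.

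**Figure D2:**
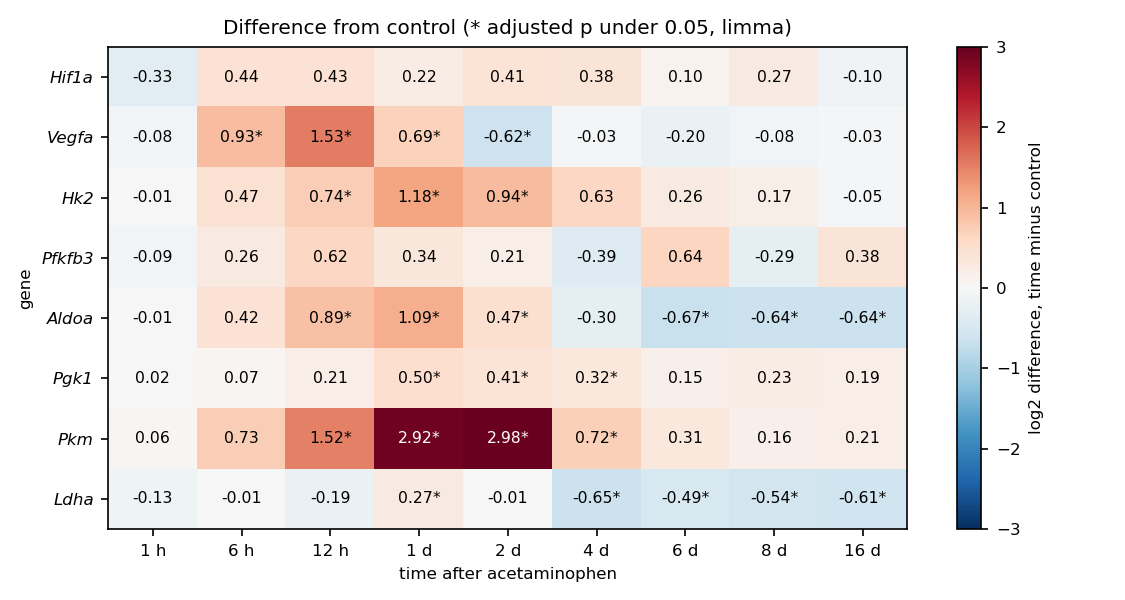
Log2 difference from control (colour and printed value) for 8 genes in rows and 9 times in columns, with an asterisk where limma's adjusted p was under 0.05. Asterisks for higher values lie between 6 h and 4 d, and those for Aldoa and Ldha below control lie between 4 d and 16 d.

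Hif1a encodes the oxygen-regulated subunit of HIF-1, which is controlled mainly through the stability of the protein. Its probe set 1416035_at, the only one with control values, lay between 6.81 and 7.88 at 12 h and between 6.79 and 7.41 at 1 d. In the control group 4 arrays lay between 7.08 and 7.35 and replicate 3 lay at 6.09. The groups overlapped at every time, no difference from control was called, and the largest was 0.44 ± 0.25 at 6 h (limma adjusted p = 0.457). In the order of its 10 group means no neighbouring pair differed by more than the larger of their SDs. Leaving out the 3 arrays of narrow spread, where this probe set was lowest in each group, brought the 1 d difference to 0.01 and the 12 h difference to 0.22.

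On the arrays with all probe sets, the Hif1a probe set with the highest mean was 1427418_a_at. It read 9.44, 10.40, 9.60, 9.69 and 9.33 at 12 h, and 10.04, 9.18, 9.49, 9.67 and 9.41 at 1 d. The 1 h arrays read 8.47, 8.69, 8.21, 8.79 and 8.69. Every array of 12 h, 1 d and 2 d lay above every 1 h array. Against 1 h the differences were 1.12 ± 0.19 at 12 h (adjusted p = 0.000295), 0.99 ± 0.19 at 1 d (adjusted p = 0.00069) and 0.74 ± 0.19 at 2 d (adjusted p = 0.00761, limma), and 0.10 ± 0.19 at 16 d, which was not called. Of the other Hif1a probe sets, 1448183_a_at was called at 12 h (0.82 ± 0.27, adjusted p = 0.0438) and at no other time, and 1416035_at was called at 2 d alone (0.74 ± 0.26, adjusted p = 0.0434, limma). The 1 h group of 1416035_at held the narrow array, replicate 3, at 5.53, with the others between 6.67 and 7.13, against 7.04 to 7.98 at 2 d. The 2 d difference of 1416035_at without that array is not given here. The dim 1431981_at, with group means between 3.40 and 3.63, read -0.19 at 12 h and -0.23 at 1 d, neither called. No control value was used for 1427418_a_at, so its change is known from 1 h only.

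Vegfa encodes the main growth factor for blood vessels and is a classic HIF-1 target. Vegfa read 9.55, 8.53, 8.20 and 8.25 at 6 h and 8.55, 9.74, 9.10, 9.15 and 9.61 at 12 h, against 7.72, 7.98, 7.31, 7.72 and 7.79 in control. All 6 h and 12 h arrays lay above all control arrays. The differences were 0.93 ± 0.23 at 6 h (1.91-fold, adjusted p = 0.00728), 1.53 ± 0.22 at 12 h (2.88-fold, adjusted p = 7.63e-07) and 0.69 ± 0.22 at 1 d (adjusted p = 0.014, limma). The 1 d call was lost without 1 d replicate 1, without control replicate 3 and with ribosomal centring, where the difference was 0.40 (highest adjusted p 0.104). Against 1 h the 6 h arrays were higher by 1.01 ± 0.23 (adjusted p = 0.00504), where 3.07% of all probe sets were called higher, and from 12 h to 1 d Vegfa fell by 0.84 on the log2 scale (SE 0.22, adjusted p = 0.014), where 1.75% were called lower. The 6 h calls were lost without 6 h replicate 1, where the difference was 0.62 against control (adjusted p = 0.107) and 0.70 against 1 h (adjusted p = 0.0778), and that against control also with the 2 compared groups only. The fall from 12 h to 1 d was lost without 12 h replicate 2, 12 h replicate 5 or 1 d replicate 3 (highest adjusted p 0.0727).

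At 2 d Vegfa alone of the 8 genes was called lower than control. It read 7.26, 7.44, 6.73, 7.05 and 6.94 at 2 d, and 4 of these arrays lay below every control array. The difference was -0.62 ± 0.22 (adjusted p = 0.0252), and the step from 1 d was -1.30 ± 0.22 (adjusted p = 2.03e-05, limma), where 3.53% of all probe sets were called lower. The 2 d call against control was lost without 2 d replicate 3, without 2 d replicate 5 and without control replicate 2, with a highest adjusted p of 0.0747. Against 1 h the 2 d difference was -0.54 ± 0.23 and was not called (adjusted p = 0.0908). From 4 d to 16 d the differences from control lay between -0.20 and -0.03 and none was called. The second Vegfa probe set, 1451959_a_at, differed from 1 h by 1.10 ± 0.20 at 12 h (adjusted p = 0.000484) and by -0.38 ± 0.20 at 2 d, which was not called.

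Slc2a1 encodes GLUT1, the widespread glucose transporter that hepatocytes carry at low levels, and had values in 5 groups. It read 10.88, 9.0, 8.41, 10.03 and 8.84 at 1 d and 8.02, 9.81, 9.41, 9.10 and 8.39 at 12 h. The 1 h arrays read 7.75, 7.41, 7.44, 7.60 and 7.75. Every 12 h and 1 d array lay above every 1 h array, and the 1 d arrays were spread widely, with replicates 1 and 4 highest. Against 1 h the differences were 1.36 ± 0.35 at 12 h (adjusted p = 0.00991) and 1.84 ± 0.35 at 1 d (3.58-fold, adjusted p = 0.000492, limma). At 2 d it read 7.66, 8.38, 7.85, 8.02 and 8.19, and the difference of 0.43 ± 0.35 was not called (adjusted p = 0.375). The step from 1 d to 2 d was -1.41 ± 0.35 (adjusted p = 0.0144), where 1.59% of all probe sets were called lower.

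Slc2a1 at 16 d read 6.32, 6.13, 6.67, 6.05 and 6.80, which put every 16 d array below every 1 h array, yet the difference of -1.19 ± 0.35 missed the threshold (limma adjusted p = 0.0921). From high to low the group means ran 1 d, 12 h, 2 d, 1 h and 16 d, and only 1 d and 12 h lay within the larger SD of each other. Because the 1 h and 16 d means lay apart, the choice of reference set the size of the change: against 16 d the 1 d difference was 3.04 ± 0.35 (8.2-fold). The 2 other Slc2a1 probe sets rose at 1 d by 2.09 ± 0.39 (1426599_a_at, adjusted p = 0.000409) and 1.66 ± 0.39 (1426600_at, adjusted p = 0.00368).

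A moderated F test over the 5 groups called 8 of 9 genes (limma), against 29.9% of all probe sets, and missed Pfkfb3. Of the 9, 5 genes were higher than 1 h at 12 h, against 6.3% of all probe sets. At 1 d 8 of 9 were higher (8.8% of all), with Pfkfb3 as the exception, and 5 of 9 at 2 d (10.9% of all). At 16 d 2 of 9, Aldoa and Ldha, were lower, against 0.799% of all, and the Aldoa call (-0.63 ± 0.16) was lost in 13 of 21 alternatives. Without the narrow arrays the 1 d count was 7, since Vegfa was lost (0.66, adjusted p = 0.0633), and the 16 d count was 1, since Aldoa was lost (-0.52, adjusted p = 0.173). The 1 h arrays also differed from those of 12 h, 1 d and 2 d in a measure of RNA quality, the 3′ minus 5′ log2 value of Actb probe sets. It was 0.32 to 0.42 at 12 h, 0.37 to 0.48 at 1 d, 0.26 to 0.48 at 2 d and 0.39 to 0.65 at 16 d, against 0.52 to 0.73 at 1 h. For Gapdh the same measure overlapped between 1 h (-0.18 to 0.04) and 12 h (-0.26 to 0.33), 1 d (-0.20 to 0.02), 2 d (-0.21 to -0.16) and 16 d (-0.17 to -0.09). The part of RNA quality in the differences from 1 h was not tested.

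Hk2 encodes hexokinase 2, which traps glucose in the cell and is scarce in healthy hepatocytes. It read 7.41, 5.87, 5.30, 6.96 and 5.44 at 1 d and 5.82, 5.98, 5.89, 6.08 and 6.00 at 2 d, against 4.91, 4.93, 5.11, 4.75 and 5.36 in control. At 1 d 4 of 5 arrays lay above every control array, and replicates 1 and 4 stood far above the other 3. At 2 d all 5 arrays did, and they lay close together (SD 0.10, against 0.94 at 1 d). The differences were 0.74 ± 0.23 at 12 h (adjusted p = 0.0174), 1.18 ± 0.23 at 1 d (2.27-fold, adjusted p = 9.93e-05) and 0.94 ± 0.23 at 2 d (1.92-fold, adjusted p = 0.00142, limma). The 12 h call was lost without 12 h replicate 3 and without 12 h replicate 4 (highest adjusted p 0.0698). At 4 d all 5 arrays again lay above every control array, but the difference of 0.63 ± 0.23 was not called (adjusted p = 0.0588).

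Pfkfb3 encodes the enzyme that makes fructose 2,6-bisphosphate, an activator of glycolysis. It was the least regular of the genes, with no call at any time against control or 1 h. At 1 d it read 7.37, 6.46, 5.72, 7.45 and 6.45, against 5.56, 6.48, 5.98, 6.94 and 6.79 in control, and the groups overlapped. Its largest differences were 0.64 ± 0.34 at 6 d (adjusted p = 0.311) and 0.62 ± 0.34 at 12 h (adjusted p = 0.203, limma).

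Aldoa encodes aldolase A, the muscle and general form of the enzyme that splits fructose 1,6-bisphosphate. It read 10.55, 10.44, 10.65, 10.77 and 10.45 at 12 h and 11.20, 10.54, 10.42, 11.07 and 10.63 at 1 d, against 9.64, 9.69, 9.36, 9.76 and 9.97 in control. All arrays of both times lay above all control arrays. The differences were 0.89 ± 0.15 at 12 h (adjusted p = 1.12e-05) and 1.09 ± 0.15 at 1 d (2.13-fold, adjusted p = 1.4e-07), then 0.47 ± 0.15 at 2 d (adjusted p = 0.0114, limma), a call lost under both centrings, with the 2 compared groups only and without 2 d replicate 2 or control replicate 3 (highest adjusted p over the alternatives 0.152). The step down from 1 d to 2 d was -0.62 ± 0.15 (adjusted p = 0.00249), and that from 2 d to 4 d was -0.77 ± 0.15 (adjusted p = 0.000115), where 12.6% of all probe sets were called lower.

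From 6 d on Aldoa was lower than control. It read 9.02, 9.18, 8.85, 9.06 and 8.97 at 6 d, 9.18, 9.02, 8.98, 9.09 and 8.93 at 8 d, and 9.05, 9.05, 9.01, 8.63 and 9.49 at 16 d. All 6 d and 8 d arrays and 4 of 5 at 16 d lay below every control array. The differences were -0.67 ± 0.15 at 6 d (adjusted p = 0.00173), -0.64 ± 0.15 at 8 d (adjusted p = 0.00282) and -0.64 ± 0.15 at 16 d (adjusted p = 0.00353, limma). The 16 d call was lost with the 2 compared groups only (adjusted p = 0.0606). All 5 Aldoa probe sets carry a suffix marking possible cross-hybridisation, and all 5 were called higher at 12 h and 1 d against 1 h, by 0.73 to 1.15 at 1 d.

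Pgk1 encodes phosphoglycerate kinase 1, the first ATP-yielding step. It read 12.08, 11.90, 11.74, 12.24 and 11.88 at 1 d and 11.78, 12.07, 11.81, 11.87 and 11.84 at 2 d, against 11.53, 11.34, 11.31, 11.66 and 11.49 in control. All 1 d, 2 d and 4 d arrays lay above all control arrays. The differences were 0.50 ± 0.08 at 1 d (1.42-fold, adjusted p = 5.82e-06), 0.41 ± 0.08 at 2 d (adjusted p = 0.000125) and 0.32 ± 0.08 at 4 d (adjusted p = 0.00529, limma). The 2 d call was lost under both centrings (highest adjusted p 0.0794). The 4 d call was lost with centring on the array median, with the 2 compared groups only and with 16 d as the reference, where the difference was 0.12 (adjusted p = 0.54). At 12 h the difference of 0.21 ± 0.08 was not called (adjusted p = 0.0646). At 8 d 4 of 5 arrays lay above every control array, and the difference of 0.23 ± 0.08 was not called (adjusted p = 0.0806). The 2 other Pgk1 probe sets had no control values and rose less from 1 h. Group means at 1 h, 1 d and 2 d were 10.92, 11.35 and 11.19 for 1438640_x_at and 9.99, 10.27 and 10.18 for 1439435_x_at. They were 11.48, 11.97 and 11.87 for 1417864_at, which stood for the gene.

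Pkm encodes the M forms of pyruvate kinase, which dividing cells and leukocytes use, and it showed the largest difference from control among the 8 genes. It read 8.86, 8.33, 7.64, 9.31 and 7.97 at 1 d and 7.74, 9.03, 7.93, 8.75 and 8.97 at 2 d, against 5.61, 5.41, 5.41, 5.45 and 5.65 in control. The lowest array at 1 d and at 2 d lay far above the highest control array. The differences were 1.52 ± 0.24 at 12 h (adjusted p = 6.18e-06), 2.92 ± 0.24 at 1 d (7.55-fold, adjusted p = 1.34e-12) and 2.98 ± 0.24 at 2 d (7.86-fold, adjusted p = 2.73e-13, limma).

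At 6 h its 4 arrays, at 5.75, 6.58, 6.07 and 6.53, already lay above all control arrays, but the difference of 0.73 ± 0.26 was not called (adjusted p = 0.0946). The step from 6 h to 12 h was 0.79 ± 0.26 (adjusted p = 0.0453, lost in 7 of 9 fits without 1 replicate, with a highest adjusted p of 0.167), where 4.02% of all probe sets were called higher, and that from 12 h to 1 d was 1.40 ± 0.24 (adjusted p = 0.000177, limma), where 3.07% were. From 2 d to 4 d Pkm fell by 2.25 on the log2 scale (SE 0.24, adjusted p = 2.41e-09). At 4 d the remaining difference of 0.72 ± 0.24 was called (adjusted p = 0.0349), but the call was lost in 7 of 23 alternatives. It was 0.51 without 4 d replicate 1, which read 7.07 (adjusted p = 0.173), and 0.51 with 16 d as the reference (adjusted p = 0.299). It was 0.70 without the narrow control array, replicate 3 (adjusted p = 0.0539), and it was also lost without 4 d replicate 5, control replicate 2 or control replicate 4.

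Ldha encodes the A subunit of lactate dehydrogenase, which turns pyruvate into lactate. It read 12.72, 12.44, 12.89, 12.79 and 12.74 at 1 d, against 12.70, 12.48, 12.33, 12.31 and 12.41 in control. At 1 d 4 of 5 arrays lay above every control array, and the difference of 0.27 ± 0.10 was barely called (1.2-fold, limma adjusted p = 0.0483). It was lost in 13 of 23 alternatives, among them without the narrow control array (0.24, adjusted p = 0.104), and turned to -0.019 when arrays were centred on ribosomal protein genes. Against 1 h the 1 d difference was 0.40 ± 0.09 (adjusted p = 0.00413), a call lost with ribosomal centring (0.06, adjusted p = 0.571), and the step from 12 h to 1 d was 0.46 ± 0.10 (adjusted p = 0.00455).

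Later Ldha was lower than control. It read 12.00, 11.69, 11.92, 11.54 and 11.82 at 4 d and 11.88, 11.82, 11.78, 11.80 and 11.92 at 16 d. Every array from 4 d to 16 d lay below every control array. The differences were -0.65 ± 0.10 at 4 d (adjusted p = 9.67e-06), -0.49 ± 0.10 at 6 d (adjusted p = 0.00133), -0.54 ± 0.10 at 8 d (adjusted p = 0.000407) and -0.61 ± 0.10 at 16 d (adjusted p = 9.65e-05, limma). At 16 d Ldha was also below 1 h, by -0.48 ± 0.09 (adjusted p = 0.00535). The steps from 4 d to 6 d, 6 d to 8 d and 8 d to 16 d called none of the 8 genes, where 2.18%, 0.0% and 0.0123% of all probe sets were called in either direction. At an unadjusted p under 0.05 these steps gave 3, 1 and 0 genes (limma).

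Several steps of the pathway have alternative forms encoded by different genes. Each array's difference between the forms of a pair was compared over time with a two-sided exact permutation test, adjusted over 22 tests. Of 7 such pairs 3 had a single-symbol probe set for both genes: Pkm with Pklr (liver and red cell pyruvate kinase), Ldha with Ldhb (the heart-type subunit), and Slc2a1 with Slc2a2 (GLUT2, the hepatocyte glucose transporter). In all 14 of the 22 tests were called. The smallest p that 5 arrays against 5 can give is 0.00794, which becomes 0.0194 after adjustment.

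Pkm and Pklr rose at different times. The Pkm minus Pklr difference stood above control by 0.67 at 6 h (4 arrays against 5, adjusted p = 0.0499, exact permutation test). It stood above control by 1.38 at 12 h (adjusted p = 0.0349), 2.69 at 1 d and 2.73 at 2 d (adjusted p = 0.0194 each, exact permutation test). From 6 h to 2 d Pklr itself was within 0.25 of control and not called. At 4 d, 6 d, 8 d and 16 d the same difference stood below control by -0.88, -1.54, -1.29 and -1.44 (adjusted p = 0.0194 each, exact permutation test). At those times Pklr was higher than control by 1.60, 1.85, 1.45 and 1.65, all called by limma. Pklr read 9.02, 8.51, 8.46, 8.57 and 8.80 at 6 d, against 6.97, 6.19, 6.82, 6.87 and 7.28 in control, and the groups did not overlap.

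For Slc2a1 and Slc2a2 the difference stood above 1 h by 1.67 at 12 h (adjusted p = 0.0499) and 2.64 at 1 d (adjusted p = 0.0194) and below it by -1.63 at 16 d (adjusted p = 0.0194, exact permutation test). At 2 d the value of 0.61 was not called (adjusted p = 0.12). Slc2a2 by itself read 9.31, 10.65, 11.06, 9.87 and 10.84 at 1 d, against 11.50, 11.57, 10.57, 11.10 and 11.02 at 1 h. The 2 lowest Slc2a2 arrays at 1 d were replicates 1 and 4, the same arrays on which Slc2a1 was highest. Ldhb differed from control by -0.10 to 0.05 over all times. Ldha minus Ldhb stood below control by -0.70 at 4 d (adjusted p = 0.0194), -0.51 at 8 d (adjusted p = 0.0476) and -0.60 at 16 d (adjusted p = 0.0499, exact permutation test), and by -0.39 at 6 d, which was not called (adjusted p = 0.0931).

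**Figure D3:**
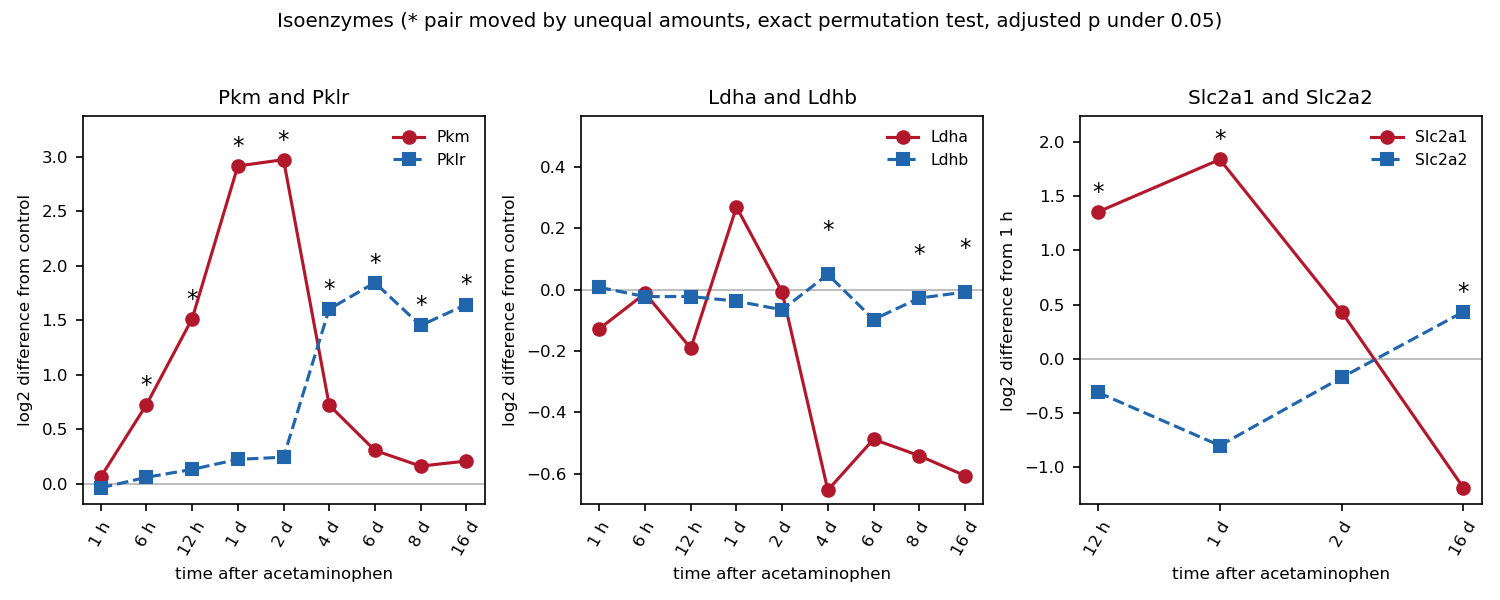
Log2 difference of each isoenzyme from its reference (vertical axis) against time after acetaminophen, for Pkm and Pklr and for Ldha and Ldhb from control, and for Slc2a1 and Slc2a2 from 1 h. Asterisks mark times at which the pair moved by unequal amounts (exact permutation test, adjusted p under 0.05). Pkm was up at 1 d and 2 d and Pklr from 4 d on.

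The 5 arrays of the 1 d group were unequal in most of these genes. Their means over all probe sets were 5.26, 5.22, 5.21, 5.30 and 5.28 in replicates 1 to 5. The part of these array means in the inequality was not tested. Replicate 4 was among the 2 highest arrays for all 9 genes and replicate 1 for 8 of 9, the exception being Ldha. Replicate 3 was lowest for 7 of 9 and highest for Ldha. Against the 1 h mean, Slc2a1 stood at 3.29 and 2.44 in replicates 1 and 4, and at 1.41, 0.82 and 1.25 in replicates 2, 3 and 5. Hk2 stood at 2.41 and 1.96 in replicates 1 and 4, and at 0.86, 0.29 and 0.44 in the others.

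Summed neutrophil markers moved with this order. Their log2 sum over 8 genes at 1 d was 12.42 and 11.26 in replicates 1 and 4, and 10.61, 9.48 and 10.48 in replicates 2, 3 and 5. Only 3 of the 8 genes were called higher than 1 h at 1 d, against 8.8% of all probe sets. They were S100a8 by 4.17, S100a9 by 3.70 and Csf3r by 0.79, and the list median was -0.07. Summed macrophage and monocyte markers over 10 genes were 12.04 and 12.07 in replicates 1 and 4, and 12.12, 11.55 and 11.52 in the others. Summed hepatocyte markers were lowest in replicates 1 and 4, at 16.49 and 16.47, against 16.61, 16.53 and 16.62 in replicates 2, 3 and 5. The part of neutrophils and of other cell types in these values was not tested.

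**Figure D4:**
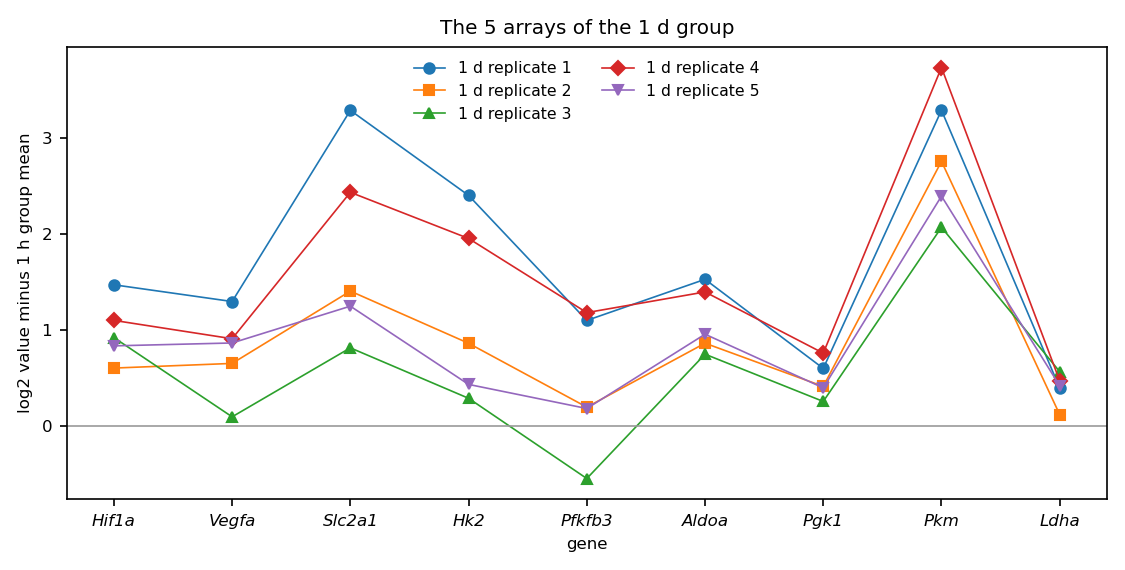
Log2 value of each 1 d array minus the 1 h group mean (vertical axis) for 9 genes (horizontal axis), with a line per array. Replicates 1 and 4 run highest for Slc2a1, Hk2, Pfkfb3, Aldoa, Pgk1 and Pkm, and replicate 3 runs lowest for 7 genes.

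**Figure D5:**
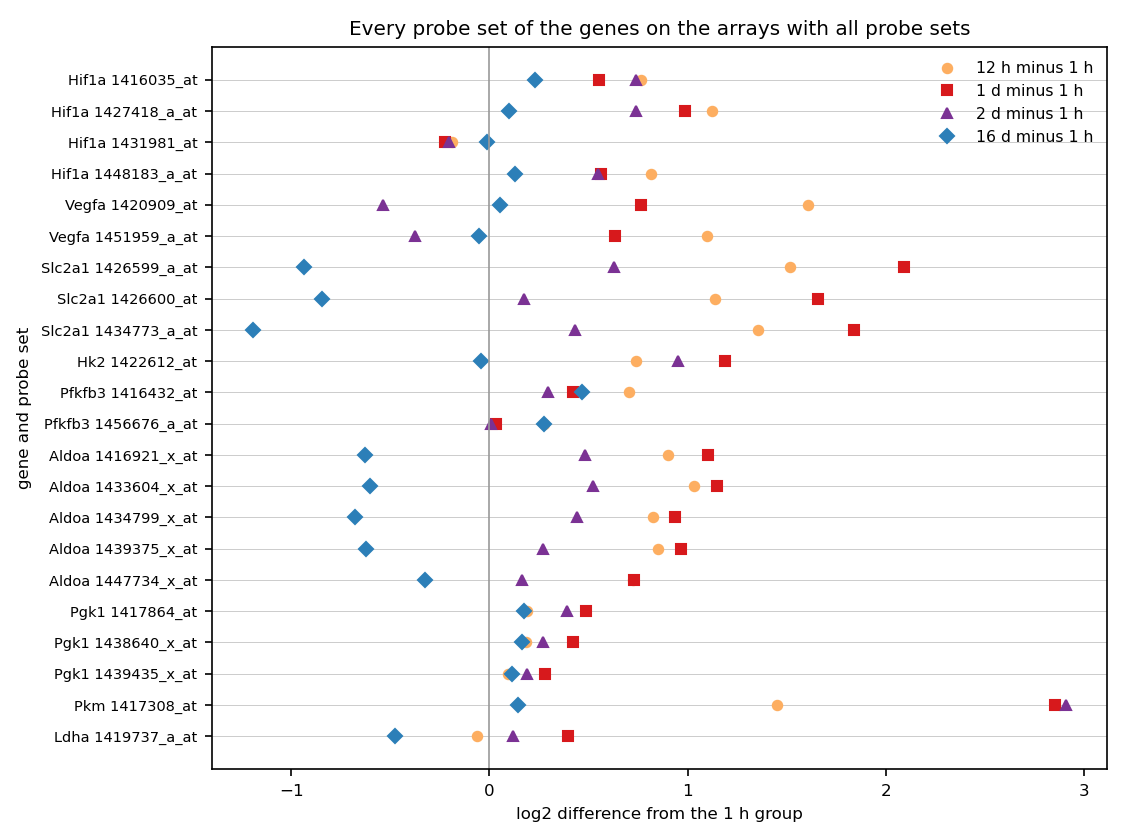
Log2 difference from the 1 h group (horizontal axis) for each of the 22 probe sets (vertical axis) at 12 h, 1 d, 2 d and 16 d. Probe sets of Slc2a1, Vegfa, Aldoa and Pgk1 run in parallel, though by unequal amounts, while Hif1a 1431981_at lies apart from the other Hif1a probe sets.

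The genes fell into several courses over time. Over the 10 group means the courses of Hk2 and Pkm correlated at 0.93, Hk2 and Pgk1 at 0.83, Pgk1 and Pkm at 0.82 and Aldoa and Ldha at 0.83 (Pearson), whereas Vegfa correlated with Pkm at 0.16 and with Pgk1 at -0.04. Pgk1 and Ldha, neighbouring in role, correlated at 0.13. All courses share the same arrays, and group means of 10 groups are few points, so these values describe and are not tested.

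Among 5976 genes, those whose group means were most like a gene's own were Rps10 (0.99), Tagln (0.99) and Fxyd5 (0.99) for Pkm, and Dcbld1 (0.98), Abhd2 (0.98) and Npm1 (0.98) for Aldoa. For Hk2 they were Crlf2 (0.98), Ear3 (0.97) and Sh3gl1 (0.97), and for Vegfa Gtpbp2 (0.94), Ubap1 (0.94) and Tnfaip6 (0.94). For Pgk1 they were Rgs2 (0.96), Tpst2 (0.95) and Atp6v1g1 (0.94), and for Ldha Psmc3 (0.97), Ssx2ip (0.97) and Denr (0.96). The courses of Hif1a and Pfkfb3 were best matched by Ms4a4d (0.91) and Dapk3 (0.87). Tagln, an actin-binding protein of smooth muscle and myofibroblasts, spanned 3.65 log2 units over the groups, and Rps10, a ribosomal protein, spanned 0.49.

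Of 24 other genes of glycolysis and lactate or glucose transport 12 had control values. At 12 h none was higher and 2 were lower (Pfkm, -0.63 ± 0.09, and Eno3, -0.32 ± 0.11), with a list median of 0.02. At 1 d 3 were higher than control and 1 lower, with a list median of 0.15, where the median of all probe sets was -0.02. Pfkp, the platelet form of phosphofructokinase, was higher by 1.10 ± 0.19 (adjusted p = 1.86e-05). Hk1, the hexokinase of most tissues, was higher by 0.53 ± 0.15 (adjusted p = 0.00452), and Pfkm, the muscle phosphofructokinase, was lower by -0.44 ± 0.09 (adjusted p = 0.000286, limma). These higher counts are 3 of 12 genes at 1 d, against 16.0% of all probe sets, and 1 of 12 at 2 d, against 19.5%. At 2 d 1 was higher (Pfkp, 0.92 ± 0.19) and 1 lower (Pfkm, -0.29 ± 0.09). Against 1 h, where 19 were measured, 6 were higher and 1 lower at 1 d, when 8.8% of all probe sets were higher. Among those higher were Pfkl, the liver phosphofructokinase, by 0.92 ± 0.23, and Hk1 by 1.40 ± 0.32. At 2 d 3 were higher than 1 h, against 10.9% of all probe sets, and 3 were lower. Pgam1, phosphoglycerate mutase 1, was higher by 0.50 ± 0.09.

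Other HIF-1 targets were called more often higher than lower at 12 h, 1 d and 2 d. Of 26 on the list 16 had control values. At 12 h 5 were higher and 3 lower, at 1 d 7 were higher and 1 lower, and at 2 d 4 were higher and 1 lower. Of all probe sets 11.5%, 16.0% and 19.5% were higher at these times. At 2 d 12.3% of all probe sets were lower, against 1 of these 16 genes. The list median was 0.14 at 12 h, 0.36 at 1 d and 0.06 at 2 d. At 1 d Adm, the vasodilator adrenomedullin, was higher by 3.48 ± 0.37 (adjusted p = 6.1e-10), Ndrg1, a stress-response gene, by 1.86 ± 0.36 (adjusted p = 8.45e-05) and Cited2, a negative regulator of HIF-1, by 1.66 ± 0.34 (adjusted p = 0.000163, limma). At 2 d the leading genes were Plod2 (1.47 ± 0.25) and Lox (1.23 ± 0.17), which modify and crosslink collagen, followed by Adm (1.20 ± 0.37). Bnip3, a mitophagy receptor and a textbook HIF-1 target, was the gene called lower at 1 d (-0.41) and at 2 d (-1.20), and it was still lower at 16 d (-1.09), and it was singled out after its values were seen. Against 1 h Hmox1, heme oxygenase 1, was higher at 1 d by 1.70 ± 0.45.

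Of 10 oxygen sensors and HIF partners, which share Egln1 and Egln3 with the list before, 6 had control values, and at 1 d only Egln3, a HIF prolyl hydroxylase that HIF-1 itself induces, was called (0.79 ± 0.28, adjusted p = 0.0284, limma). Egln3 had been lower than control at 6 h by -1.15 ± 0.30 (adjusted p = 0.0106). At 4 d Arnt was higher by 0.39 ± 0.11, and Egln1, another HIF prolyl hydroxylase, was lower by -0.45 ± 0.15 at 4 d and -0.47 ± 0.15 at 16 d (limma). Against 1 h all 10 were measured and 3 were higher at 1 d, where 8.8% of all probe sets were. These were Egln3 by 1.55 ± 0.30, Epas1 (HIF-2 alpha) by 0.46 ± 0.14 and Arnt (the shared HIF beta subunit) by 0.29 ± 0.09. At 2 d Egln2 and Hif3a were lower than 1 h by -0.40 each. Against control at 2 d Egln2 differed by -0.11 and the Hif3a probe set with control values by -0.14, neither called. Egln2 at 1 h stood 0.29 above control, which was not called. In the VEGF family, 1 of 5 genes was higher than control at 1 d (Pgf, placental growth factor, 0.58 ± 0.18) and 1 at 2 d (Vegfc, 0.59 ± 0.19). Of all probe sets 16.0% and 19.5% were higher at these times. Against 1 h Kdr, the main VEGF receptor, was lower at 1 d by -0.88 ± 0.23.

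Of 4 gluconeogenic genes with control values 1 was lower at 1 d, the glucose 6-phosphate transporter Slc37a4 (-0.80 ± 0.18, adjusted p = 0.000741). At 2 d G6pc, the enzyme that releases free glucose, was higher by 1.25 ± 0.42, while Slc37a4 was lower by -0.65 ± 0.18 and Pcx, pyruvate carboxylase, by -0.51 ± 0.14 (limma). The G6pc difference from control was not particular to 2 d. It was also called higher at 6 h (1.71), 4 d (1.91), 6 d (2.50) and 16 d (2.90), and was not called at 12 h (-0.02) or 1 d (-0.10). The direction for G6pc depended on the reference, since at 1 h it was itself above control by 2.32 ± 0.42. Against 1 h G6pc was lower by -2.34 ± 0.45 at 12 h (adjusted p = 0.000864) and -2.42 ± 0.45 at 1 d (adjusted p = 0.000392), and its difference of -1.08 ± 0.45 at 2 d was not called (adjusted p = 0.0827, limma). Also called lower than 1 h were Fbp1 (-0.46 at 12 h and -0.90 at 1 d) and Pck1 (-0.61 at 12 h). Slc37a4 was lower by -1.05 at 1 d and -0.90 at 2 d, and Pcx by -0.53 at 2 d. No gene among the 6 was called higher than 1 h at these times.

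Markers of other cell types moved over the same days. Of 6 macrophage and monocyte markers 3 were higher at 12 h, 5 at 1 d and 6 at 2 d, and none was lower. Of all probe sets 11.5%, 16.0% and 19.5% were higher at these times. Their log2 summed level was 10.99 to 11.77 at 1 d and 11.56 to 12.33 at 2 d, against 9.83 to 10.65 in control. Chil3, a secreted product of activated macrophages, was higher by 5.86 ± 0.46 at 1 d and 5.76 ± 0.46 at 2 d. Of 6 neutrophil markers 2 were higher at 1 d (S100a8 by 4.63 ± 0.63 and Csf3r by 0.78 ± 0.21). Elane, Ngp, Camp and Mpo lay between -0.14 and 0.06 and were not called, and the list median was 0.05. The summed level was 8.66 to 11.45 at 1 d, against 7.37 to 7.94 in control. S100a8 was the brightest of the list at 1 d (mean 9.67), so the sum mostly followed it.

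Stellate cell and myofibroblast markers were higher in 2 of 5 at 1 d and 4 of 5 at 2 d, where 16.0% and 19.5% of all probe sets were. Their summed level was 10.22 to 10.89 at 2 d, against 7.02 to 7.78 in control. Col1a2, a collagen chain, was higher by 4.25 ± 0.26 and the actin gene Acta2 by 3.95 ± 0.24 at 2 d. All 6 proliferation genes were higher at 2 d, with Mcm6, a DNA replication helicase subunit, at 4.15 ± 0.30. Of 4 endothelial markers 2 were higher at 1 d, Pecam1 (1.56 ± 0.21) and Cdh5 (0.34 ± 0.13, from a control mean of 3.25). At 12 h Stab2 was lower, by -0.49. Against 1 h, where 8 endothelial markers were measured, 4 were higher at 1 d and 2 were lower (Kdr by -0.88 and Clec4g by -0.76). Of 3 hepatocyte markers with control values Cyp2e1, the enzyme that activates acetaminophen, was lower by -0.87 ± 0.11 at 1 d and -1.0 ± 0.11 at 2 d. Apoa1 (0.006 at 1 d and 0.005 at 2 d) and Hnf4a (-0.33 and -0.28) were not called at either time. The summed level of the 3 markers was 14.48 to 14.69 at 1 d, against 14.86 to 14.94 in control. Of 5 T, B and NK cell markers Cd3e was lower at 1 d by -0.34 ± 0.10, of 3 bile duct markers Cldn4, a tight junction protein, was higher at 2 d by 0.96 ± 0.32, and the platelet gene Ppbp was higher at 1 d by 1.77 ± 0.56. No marker's mean over all arrays lay in the lowest 10% of values (under 3.25), though Cdh5 lay at that limit in control. The part of these cell types in the changes of Pkm, Hk2, Slc2a1 and Aldoa was not tested.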

How the data were processed

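Livers of 49 arrays in 10 groups were measured on Affymetrix mouse arrays. The deposited values are log2 expression per probe set, made by the authors with RMA in oligo 1.52.0, per the submitters' processing notes. On 24 arrays only about the first 8137 probe sets had values. Fits were made with limma 3.58.1 in R 4.3.3, with 1 mean per group, over 8137 probe sets on 49 arrays or 45037 on 25 arrays (64 spike-in probe sets left out). Adjustment was by Benjamini-Hochberg over all probe sets of a comparison. A single gene symbol was listed for 7370 of the 8137 probe sets (223 had several and 544 none here) and for 34945 of the 45037 (932 several, 9160 none). Isoenzyme pairs were tested with exact permutation in SciPy 1.17.1. The code was tested on simulated data. The number of arrays limits the precision. The genes and lists were chosen with earlier results of these data known. Genes of a list were named by the size of their change among those called. The replicate numbers were not taken as pairs, since the labels give them no meaning. Same-numbered deviations correlated at a median of 0.067 over 216 pairs, against -0.011 over 864 others. On the 25 arrays the medians were 0.153 over 50 pairs, against -0.003 over 200 others. The lowest correlation was -0.56 among the 216 pairs and -0.60 among the 864 others. Replicates 2 and 3 did have the 2 lowest array means at 12 h, 1 d, 2 d, 4 d and in control. Alternatives covered scaling, probe set filters, weights, reference, block and left-out arrays.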

Additional observations from a re-analysis of the deposited data

Results flagged for a closer look

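In 5 of 90 groups tested, 1 array stood apart from the others of its group by Dixon's criterion, which chance meets in about 1 in 20 groups. Hif1a 1416035_at read 5.53 in 1 h replicate 3, with the others between 6.67 and 7.13, and 6.09 in control replicate 3, with the others between 7.08 and 7.35. Both are arrays of narrow spread. Vegfa read 8.40 in 16 d replicate 5, with the others between 7.35 and 7.64. Pfkfb3 read 4.71 in 8 d replicate 4, with the others between 6.25 and 6.67. Pgk1 read 11.44 in 8 d replicate 2, with the others between 11.71 and 11.82.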

How the results depend on the processing

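Of 56 called results 31 kept their call under every alternative run, among them Pkm at 12 h, 1 d and 2 d, Aldoa and Pgk1 at 1 d and Hk2 at 1 d and 2 d against control, and Slc2a1 at 12 h and 1 d against 1 h. With 16 d as the reference Aldoa at 1 h turned to 0.63, and Ldha turned to 0.48 at 1 h, 0.59 at 6 h, 0.41 at 12 h, 0.60 at 2 d, 0.12 at 6 d and 0.065 at 8 d, because 16 d itself lay below control. Ldha at 1 d turned to -0.019 with centring on ribosomal protein genes. Counts of called genes against 16 d were 2 at 1 h, 3 at 6 h and 0 at 4 d, 6 d and 8 d. Array weights gave 2 at 6 h and 5 at 4 d. Centring on the array median gave 3 at 2 d and 1 at 16 d against 1 h. Without probe sets marked _x_at or _s_at, which drops Aldoa, 1 gene was called at 6 d, 8 d and 16 d against control and at 16 d against 1 h. Fitting the 2 compared groups only gave 1 at 16 d, ribosomal centring gave 5 at 1 d against 1 h, and leaving out the narrow arrays gave 1 at 16 d against 1 h. Quantile normalization gave 2 for the steps to 6 h and to 12 h. The replicate block gave 1 at 16 d against 1 h, where Aldoa was lost, and 2 for the step to 12 h, and it ended the call of Ldha at 1 d against control. The cause of these changes was otherwise not tested. Leaving out 1 replicate each gave 0 to 0 genes at 1 h, 1 to 1 at 6 h, 3 to 5 at 12 h, 4 to 6 at 1 d, 4 to 5 at 2 d, 2 to 4 at 4 d, 2 to 2 at 6 d, 2 to 3 at 8 d and 2 to 2 at 16 d against control. Against 1 h it gave 5 to 5, 7 to 8, 4 to 5 and 1 to 2 at 12 h, 1 d, 2 d and 16 d. The F test gave 6 to 8 and 8 to 8, the steps to 6 h, 12 h, 1 d, 2 d and 4 d gave 0 to 1, 0 to 2, 2 to 4, 2 to 3 and 3 to 4, and the isoenzyme pairs 9 to 14. Ribosomal centring shifted the median of all probe sets by -0.29 at 1 d and -0.25 at 2 d against control. The split of all calls against control into higher and lower moved too: 294 and 147 at 6 h became 288 and 251 with median centring and 324 and 364 with quantile normalization, 738 and 501 at 4 d became 648 and 955 or 763 and 957, and 412 and 196 at 6 d became 361 and 329 or 401 and 462. At 12 h 935 and 922 became 692 and 2097 with ribosomal centring, and at 8 d 366 and 219 became 413 and 410 with quantile normalization. Against 1 h at 1 d 3962 and 4127 became 4389 and 2796 with median centring and 2038 and 28481 with ribosomal centring.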
